A study of Mus musculus with 15 samples.

Results

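Pttg1 is the gene of securin (ENSMUSG00000020415), a protein-coding gene on chromosome 11 of the mouse genome, build GRCm38, from base 43420250 to base 43426251 on the minus strand. It was taken by its name from the deposited tables of normalized read counts, where 1 of 55536 genes bears that name, and it was read in all 15 samples. The gene was chosen by its measured difference between knockout and control muscle, where it was the one gene to pass the threshold, so its own levels and differences are given as a description with no test. The samples were skeletal muscle of 15 mice, all labelled male and aged 2 months. The control group held 5 mice labelled wild type. The knockout group held 5 mice whose label is PdgfrB Knock Out, with the deletion specific to myogenin-expressing cells, and the D489V group held 5 mice carrying the constitutively active allele PdgfrB D489V in the same kind of cells. The labels name no Cre line, muscle, strain, litter or batch, and they do not say whether the controls carried a Cre or a floxed allele. Nothing beyond the labels says how the mice of a group were related, so p-values measure the spread between these samples.

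Securin binds and blocks separase, the protease encoded by Espl1, until every chromosome is attached to the spindle. The spindle checkpoint (Mad2l1, Bub1b and others) holds back the ubiquitin ligase APC/C, which with its activator Cdc20 marks securin and cyclin B for destruction. Freed separase then cuts the cohesin subunit Rad21, and sister chromatids part. In most dividing cells the Pttg1 transcript is made together with those of other mitotic genes, in late S phase and G2. The nuclei of adult muscle fibres do not divide, and the dividing cells of muscle are satellite cells and cells between the fibres. Pttg1 was first described as the pituitary tumour-transforming gene and has also been described as a regulator of transcription.

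The start of a gene shows whether it holds the short sequences shared by genes made before mitosis, so the stretch before the start of Pttg1 is printed with that of Mki67, the gene of the proliferation marker Ki-67. Both come from the RefSeq promoter windows for GRCm38.p6, which run from 250 bases before to 50 bases after a start. They are written 5′ to 3′ on the strand of the gene, and capitals mark any match on either strand to CCAAT (the box bound by NF-Y), TTTGAA or TTTAAA (2 forms of the cell cycle homology element), GGCGGGA (a form of the E2F site) or GGGCGG (the GC box). The last 2 can share bases.
Pttg1, chr11:43425982-43426173, minus strand: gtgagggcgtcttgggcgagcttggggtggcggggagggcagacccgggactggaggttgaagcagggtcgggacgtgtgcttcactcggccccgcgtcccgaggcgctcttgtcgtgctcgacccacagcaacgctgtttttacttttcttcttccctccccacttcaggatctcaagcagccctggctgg
Mki67, chr7:135716380-135716629, minus strand: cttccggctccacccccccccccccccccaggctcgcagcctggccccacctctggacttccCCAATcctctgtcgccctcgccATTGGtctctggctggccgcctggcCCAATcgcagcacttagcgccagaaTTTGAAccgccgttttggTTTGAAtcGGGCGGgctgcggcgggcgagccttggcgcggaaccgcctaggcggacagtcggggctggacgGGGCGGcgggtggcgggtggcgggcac
The whole Pttg1 window held none of the 5 motifs, and its printed part is therefore all in lower case. Of 32851 windows in the table, 37.4% held CCAAT, 17.9% TTTGAA, 13.2% TTTAAA, 11.3% GGCGGGA and 35.7% GGGCGG. The table held 27 windows for 25 of the 30 mitosis genes described below. Among these windows 21 held CCAAT (77.8%), 20 TTTGAA (74.1%), 8 TTTAAA (29.6%), 9 GGCGGGA (33.3%) and 24 GGGCGG (88.9%). The Pttg1 window surrounds the RefSeq start. The printed stretch lies in an intron of annotated transcripts that start further upstream, at base 43426251, and the window does not reach that start. The absence of a match says only that these letters are not in this window.

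Pdgfrb, the gene named in the genotypes, was read in every sample and gives a limited check of the labels, since whole muscle was sequenced. Controls had normalized counts of 1673 to 1848, knockout samples 958 to 1628, and D489V samples 820 to 1062. The log2 difference to control was -0.45 in knockout (SE 0.13, limma adjusted p 0.294) and -0.96 in D489V (SE 0.0897, limma adjusted p 0.00168). Libraries summed to 29815559 to 36489777 normalized counts. The 10 muscle fibre markers summed to between 5709656 and 7815200 in every sample. In 4 libraries lymphocyte genes were high: the 6 B cell markers summed to 5354 in control 5 and to 1560, 5321 and 1349 in knockout 3, 4 and 5, against 25 to 245 in the other 11. Knockout 3, labelled male, had 3165 normalized counts of Xist, an RNA of cells with more than a single X chromosome, against at most 101 elsewhere, which goes against its label.

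Pttg1 was low in every knockout sample and its levels overlapped between control and D489V muscle. Controls 1 to 5 held 1294, 1083, 576, 538 and 585 normalized counts, a mean of 815 ± 349 (SD, n = 5). Knockout samples 1 to 5 held 60, 52, 43, 102 and 63, a mean of 64 ± 22.6 (SD, n = 5). D489V samples 1 to 5 held 1207, 688, 1210, 564 and 986, a mean of 931 ± 296 (SD, n = 5). No knockout value reached the range of either other group, while the control and D489V ranges overlapped, with control 1 above and control 4 below the D489V values. The control mean was 12.7 times the knockout mean, and the lowest control held 5.27 times the highest knockout sample. On the log2(value + 1) scale the knockout was -3.61 from control (SE 0.29) and -3.84 from D489V (SE 0.257), and D489V was 0.23 from control (SE 0.292). Between knockout and control, 0.00656% of the 15234 genes tested passed the adjusted threshold, which is Pttg1 alone, 2.24% had groups that did not overlap, and 1.25% had groups that parted with the knockout lower. Between knockout and D489V 6.7% did.

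In the order of the 15 values, control 1 was highest and was followed by D489V 3, D489V 1, control 2 and D489V 5, from 1294 down to 986. A step of 1.43-fold led to D489V 2, control 5, control 3, D489V 4 and control 4, from 688 down to 538. These 10 values thus lay as an upper 5 and a lower 5, and each 5 held mice of both groups. A step of 5.27-fold led to knockout 4 at 102, and a step of 1.62-fold from there to the other 4 knockout samples. The coefficient of variation of Pttg1 was 42.8% in controls, 35.3% in knockout and 31.8% in D489V, against medians of 16.2%, 13.7% and 13.8% over 12159 genes with a mean of 50 or more. Of those genes, 93.3%, 91.1% and 92.7% varied less, a set not matched to the level of Pttg1.

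**Figure D1:**
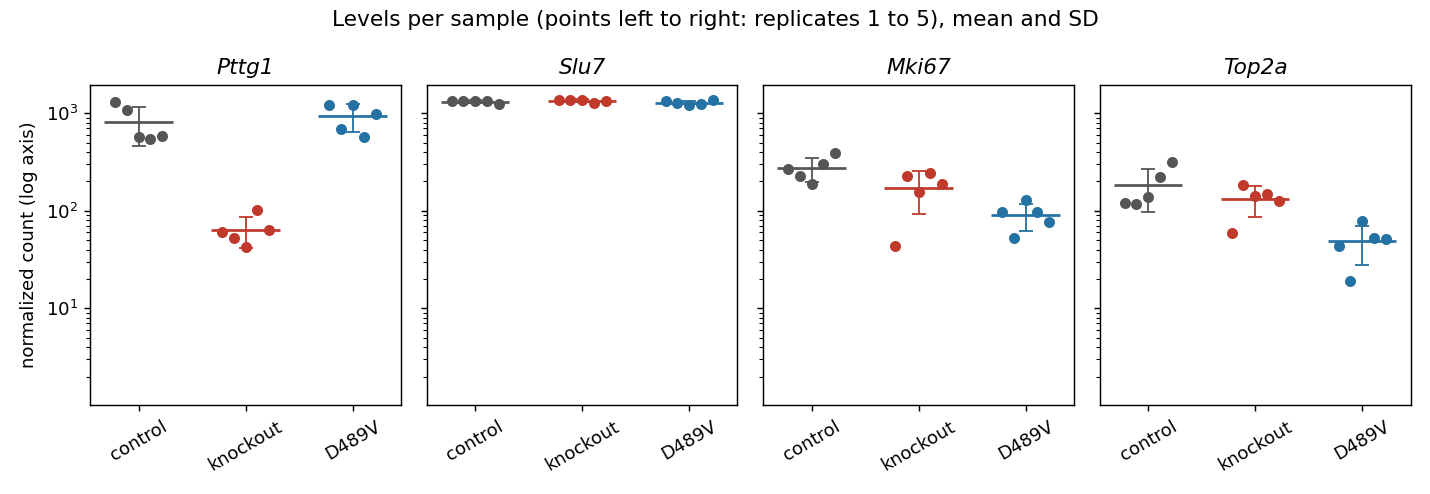
Normalized counts of Pttg1, its nearest gene Slu7, and the mitosis genes Mki67 and Top2a in each sample (log axis, points are mice in the order of their replicate numbers, horizontal lines are group means and bars are SD, n = 5). The knockout samples of Pttg1 lie at 43 to 102, below all others, Slu7 lies at 1224 to 1379 in all 15, and Mki67 and Top2a are lowest in the D489V samples and in knockout 1.

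Reads from muscle RNA come from all its cells, and fewer cells of a type cannot be told apart from less RNA per cell. The summed level of the 6 endothelial markers was 12236 to 17485 in controls, 7079 to 11358 in knockout and 13820 to 16043 in D489V mice, so the knockout lay below the other groups here too, by a smaller factor. All 6 endothelial markers reached 10 counts in at least 5 samples, and none was listed at 0 throughout. The part of endothelial cells in the Pttg1 difference was not tested. The satellite cell markers summed to 1383 to 1871 in controls, 1234 to 1910 in knockout and 1338 to 1617 in D489V mice, and the macrophage markers to 1525 to 2360, 1142 to 2300 and 1492 to 2331. The germinal centre B cell markers summed to 158 to 283 in controls, 86 to 149 in knockout and 127 to 210 in D489V mice. Every knockout sum lay below every control sum, and 2 of the 5 genes reached 10 counts in 5 samples. These sums did not always follow the B cell markers. Control 5 was highest in both, but control 2 had 202 beside 85 B cell marker counts, and knockout 4 had 149 beside 5321. Without the 4 libraries high in lymphocyte genes, the log2 difference of Pttg1 was -3.84 between the remaining 2 knockout mice and 4 controls and -3.97 between those 2 and the D489V mice. Without knockout 3 alone these differences were -3.49 and -3.71.

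Compared per kilobase of merged exon (2000 bases for Pttg1), Pttg1 stood above every gene of the mitosis list in control muscle. Its mean was 408 normalized counts per kilobase in controls, 32 in knockout and 466 in D489V muscle. The median of the 30 mitosis genes was 10.7, 7.71 and 5.52 counts per kilobase. The most abundant of them in each group was Aurka, the mitotic kinase Aurora A, at 65.3, 113 and 66.5 counts per kilobase. All 30 lay below Pttg1 in control and in D489V muscle, and 28 of 30 did in knockout. The level of Pttg1 was 38.2 times the list median in controls, 4.15 times in knockout and 84.3 times in D489V muscle. Other division genes were as high: Ube2c, an E2 enzyme of mitosis in the APC/C list, had 841, 765 and 915 counts per kilobase, above Pttg1 in all 3 groups, as had Anapc2, Anapc5 and Anapc13.

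In knockout against control, the comparison with the 12.7-fold lower Pttg1, none of the 96 genes in 5 lists of the division machinery passed the test. By limma with adjustment over all 15234 genes, 0 of 96 passed. Pttg1 alone, 0.00656% of all genes, passed here, so any list without it gives 0 in this comparison. Of the 96, 9 had an unadjusted p under 0.05, as did 2296 genes in all. In the mitosis list 29 of 30 genes had a log2 difference below 0, against 48.5% of all genes tested, with a median of -0.46 beside 0.01 over all genes. Without knockout 1, which is described below, 24 of the 30 were below 0 and the median was -0.22. The greatest differences in that list were those of Ncapg, a condensin subunit (-0.91), the kinetochore motor Cenpe (-0.89), and the cytokinesis regulator Ect2 (-0.87), each with groups that overlapped and adjusted p from 0.399 to 0.5. Aurka was the 1 gene above 0, at 0.65, with 583 normalized counts in knockout 1 and 163 to 305 in the other knockout samples.

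In D489V against control, where the Pttg1 groups overlapped, most mitosis genes had lower values and 2 of 30 passed the test. Here 29 of 30 had a log2 difference below 0, against 49.6% of all 15339 genes, with a median of -1.23 beside 0 over all genes. The groups did not overlap for 19 of the 30, all lower in D489V, while 1.06% of all genes had groups that parted in this direction. By limma 2 of the 30 fell at the adjusted threshold, against 0.0326% of all genes, and 25 had an unadjusted p under 0.05, as did 1447 genes in all. Mki67 held 268, 229, 188, 300 and 386 normalized counts in controls 1 to 5 and 97, 53, 128, 96 and 76 in D489V 1 to 5, so every D489V value was below every control. Its log2 difference was -1.61 (SE 0.244, limma adjusted p 0.0485). Ccna2, the cyclin of S phase and G2, held 95, 98, 75, 87 and 113 in controls and 43, 27, 43, 27 and 25 in D489V samples, again with no overlap. Its log2 difference was -1.50 with a limma adjusted p of 0.0408. Both calls were near the threshold: over 17 settings, Mki67 passed in 7 (adjusted p 0.0233 to 0.136) and Ccna2 in 8 (0.0169 to 0.128). The topoisomerase gene Top2a, at 117 to 317 in controls and 19 to 78 in D489V samples, had a log2 difference of -1.89 and did not pass (limma adjusted p 0.0845). Plk1, the kinase that opens mitosis, overlapped between the groups, at 42 to 80 and 37 to 67. Leaving out D489V 3 gave 21 non-overlapping genes of 30, and leaving out control 5 gave 19. Markers of other cells differed between these groups too. The 6 erythroid markers summed to 5682 to 8420 in controls and 12462 to 22164 in D489V samples, with no overlap, the 6 fibro-adipogenic markers to 93467 to 122843 and 62968 to 96934, the 5 adipocyte markers to 1653 to 29803 and 15045 to 54309, and the 5 Schwann cell markers to 7862 to 12849 and 11173 to 45477. None of these markers was listed at 0 in all samples, and the part of these cells in the mitosis values was not tested. This comparison shares its controls with that of the knockout and its D489V samples with the direct comparison of both mutants.

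**Figure D2:**
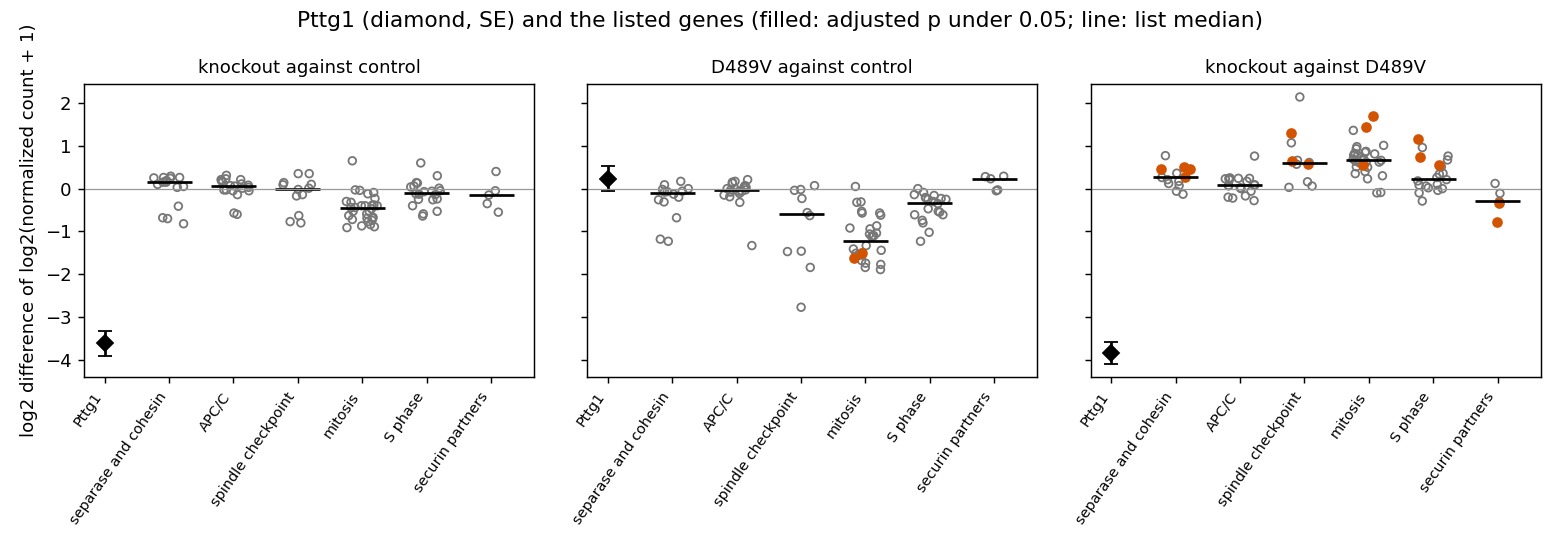
Log2 difference of Pttg1 (diamond, SE bars) and of each gene of the 5 division lists and of the securin partners (circles, filled where the adjusted p is under 0.05, horizontal lines are list medians) in the 3 comparisons. Pttg1 lies at -3.61, 0.23 and -3.84, and the mitosis medians lie at -0.46, -1.23 and 0.68.

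The protease that securin holds and the ring it cuts were described next. Espl1, the separase gene, held 44, 36, 38, 52 and 69 normalized counts in controls, 11, 33, 25, 27 and 47 in knockout and 35, 23, 38, 31 and 20 in D489V samples. All 3 groups overlapped, with log2 differences to control of -0.82 (limma adjusted p 0.315) and -0.68 (limma adjusted p 0.404). In the list of 15 genes for separase, cohesin and its loaders, 0 passed in knockout against control by limma, where Pttg1 alone passed. The list median was 0.15, and 1 gene had an unadjusted p under 0.05, as had 2296 of all 15234 genes. In D489V against control 0 of the 14 tested passed, where 9 of all genes did, and the median was -0.10. Here 3 had an unadjusted p under 0.05, as had 1447 of all 15339 genes. Cdca5, the gene of sororin, which keeps cohesin on the chromatids, was low throughout, at 10 to 18 in controls, 1 to 15 in knockout and 3 to 6 in D489V mice.

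Directly between knockout and D489V, 4 of 13 tested genes of this list passed, all higher in knockout, where 10.5% of 15299 genes passed in that direction. These were the cohesin release factor Wapl (0.51, limma adjusted p 0.0227), the acetyltransferase Esco1 (0.46, limma adjusted p 0.0186), the cohesin cofactor Pds5a (0.46, limma adjusted p 0.0159) and the ring subunit Smc3 (0.28, limma adjusted p 0.0484). Wapl held 1433, 1444, 1566, 1323 and 1633 normalized counts in knockout and 888, 994, 819, 1283 and 1300 in D489V samples, so the lowest knockout value, of knockout 4, lay just above the highest D489V value, of D489V 5, and 7.22% of genes had groups that parted in this direction. The control values of Wapl ran from 937 to 1535 and covered most of both ranges. The call of Smc3 held in 6 of 18 settings, those of the other 3 in 14 to 17.

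For the ligase that destroys securin, no difference passed the test. Of 19 APC/C subunits, activators and E2 enzymes, 0 passed in any of the 3 comparisons by limma, with unadjusted p under 0.05 for 1 gene in knockout against control, 2 in D489V against control and 7 in knockout against D489V. In the last of these 20.8% of all genes passed, and 5766 of 15299 had an unadjusted p under 0.05. In the first 2, 2296 of 15234 and 1447 of 15339 genes had such a p, and 1 and 9 genes passed. The median log2 differences of the 19 genes were 0.06, -0.03 and 0.08. Cdc20, the activator that delivers securin to the ligase, held 59, 81, 49, 69 and 106 normalized counts in controls, 23, 75, 38, 49 and 71 in knockout and 26, 21, 50, 24 and 23 in D489V samples. Only D489V 3, at 50, reached the control range, and the log2 difference of D489V to control was -1.33 (limma adjusted p 0.0947). Ube2c, the E2 enzyme that starts the ubiquitin chain, held 1335 to 2723 in controls, 1332 to 2994 in knockout and 1091 to 3750 in D489V mice, so its D489V range, like that of Pttg1, overlapped the control range.

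Among 12 spindle checkpoint and kinetochore genes, 0 passed by limma in knockout against control, where Pttg1 alone passed. Of these genes, 6 lay above and 6 below 0. Of the 12, 2 had an unadjusted p under 0.05, as had 2296 of all 15234 genes. In D489V against control, 0 of the 10 tested passed by limma, where 9 of all genes did. Here 9 lay below 0, against 49.6% of all genes, with a median of -0.60, and 5 had an unadjusted p under 0.05, as had 1447 of all 15339 genes. Groups did not overlap for 3 of the 10, the kinetochore gene Nuf2 and the checkpoint genes Bub1b and Mad2l1, all lower in D489V, beside 1.06% of all genes. Bub1b held 29, 37, 48, 59 and 110 normalized counts in controls, 33, 43, 31, 59 and 71 in knockout and 25, 8, 26, 18 and 18 in D489V samples. Between knockout and D489V, Bub1b was 1.30 higher in knockout (limma adjusted p 0.0223), Mad2l1 0.65 higher (limma adjusted p 0.0414) and the kinetochore gene Zwint 0.58 higher, and these were 3 of 11 tested, beside 10.5% of all genes that passed as higher. The call of Mad2l1 held in 9 of 18 settings.

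Between knockout and D489V most mitosis genes had differences of the sign opposite to that of Pttg1. With Pttg1 at -3.84, 28 of 30 mitosis genes were above 0, against 50.1% of all genes, with a median of 0.68 beside 0 over all genes. Of the 30, 3 passed as higher in knockout, a share near the 10.5% of all genes: the kinase gene Melk (1.70, limma adjusted p 0.0204), Top2a (1.45, limma adjusted p 0.0196) and the spindle assembly factor Tpx2 (0.55), whose call held in 10 of 18 settings. Without knockout 1 all 30 were above 0 and the median was 0.91. Without the 4 libraries high in lymphocyte genes, 26 of 30 were above 0 and the median was 0.41. Over the 5 lists together 13 of 93 tested genes passed, all higher in knockout, beside 10.5% of all genes in that direction. That count was 28 without knockout 1, 7 without knockout 5 or without D489V 1, and 3 without the 4 libraries high in lymphocyte genes. Markers of other cells parted these groups too. In knockout and D489V samples the adipocyte markers summed to 5737 to 9244 and 15045 to 54309. The erythroid markers summed to 3175 to 8038 and 12462 to 22164, and the Schwann cell markers to 5592 to 8825 and 11173 to 45477. Fibro-adipogenic, satellite cell and macrophage sums overlapped. The part of these cells in the division genes was not tested.

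The S phase list, which holds replication genes, gave 0 called genes of 20 by limma in both comparisons with control. In these, 1 and 9 of all genes passed. An unadjusted p under 0.05 was found for 3 in knockout, as for 2296 of all 15234 genes, and 8 in D489V, as for 1447 of 15339. In D489V all 20 lay below 0, against 49.6% of all genes, with a median of -0.33. Between knockout and D489V, the replication helicase genes Mcm5 (1.16) and Mcm2 (0.75) and the ribonucleotide reductase gene Rrm1 (0.55) passed, each higher in knockout, 3 of 20 beside 10.5% of all genes. Rrm1 held 986 to 1138 normalized counts in knockout, 624 to 856 in D489V and 650 to 1077 in control samples, and its limma adjusted p of 0.00624 stayed under the threshold in 18 of 18 settings.

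Of 5 genes described as securin partners or as targets of its transcriptional role, 0 passed by limma in knockout against control. Pttg1 alone of all genes passed there. Of the 5, 3 had an unadjusted p under 0.05, as had 2296 of all 15234 genes. Pttg1ip, which encodes the securin-binding factor, held 1013 to 1238 normalized counts in controls, 971 to 1171 in knockout and 1243 to 1409 in D489V mice, so D489V lay above both other groups. Against control, 1.1% of genes had groups that parted with D489V higher. Its log2 difference between knockout and control was -0.05 (SE 0.0859). Myc held 345, 356, 292, 202 and 253 in controls, 107, 194, 248, 260 and 204 in knockout and 318, 389, 309, 356 and 305 in D489V samples. Between knockout and D489V, where 10.3% of genes passed as lower, Myc had a log2 difference of -0.78 (limma adjusted p 0.0238) and Pttg1ip of -0.34 (limma adjusted p 0.0144). Trp53, whose product binds securin, was -0.35 in knockout against control and did not pass (limma adjusted p 0.305).

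Across mice of the control and D489V groups, no relation of Pttg1 with the mitosis genes was detected. A score was formed for each list as the mean of its genes' log2 values. Each gene was centred and divided by its SD over the mice correlated, or over all 15 mice for scores printed by mouse. Over the 10 control and D489V mice the mitosis score had a Pearson r of -0.22 with log2 Pttg1 (two-sided permutation p 0.525, adjusted over 5 lists 0.582). The Spearman rho was -0.07 (permutation p 0.864). Leaving out controls 1 and 4, the mice farthest from the median of Pttg1, gave r = -0.22. With the group means removed, r over all 15 mice was 0.05 (permutation p 0.857). The pooled values rest in part on the difference between the groups. In scores standardized over all 15 mice, those of controls, 0.28 to 1.33, lay above those of D489V, -1.37 to -0.42. The knockout was left out of the first form because its Pttg1 values stand apart, and 5 mice are too few for an r of their own.

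**Figure D3:**
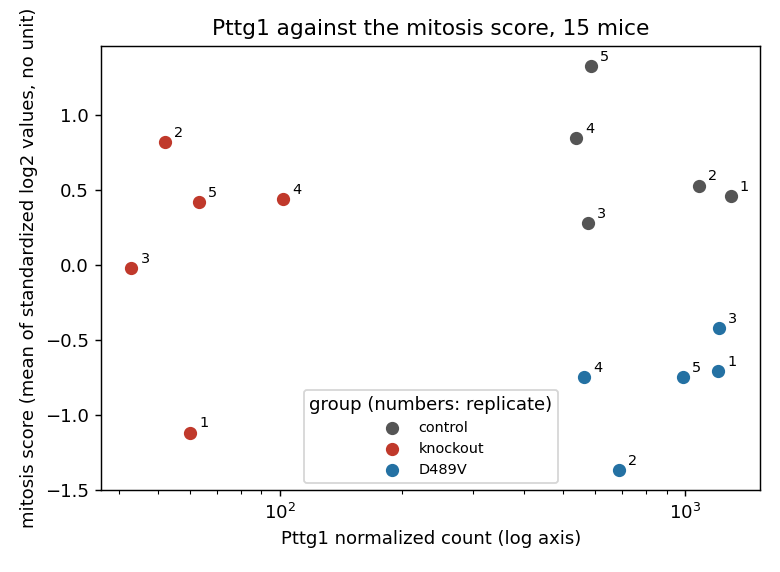
Pttg1 normalized count (log axis) against the mitosis score (mean of standardized log2 values, no unit) for 15 mice, coloured by group and numbered by replicate. The knockout mice lie at 43 to 102 counts with scores from -1.12 to 0.82, and the D489V mice lie below the controls on the score at like Pttg1 counts.

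Single mice also parted on the 2 measures. Knockout 1 had the lowest mitosis score of its group, -1.12 against -0.02 to 0.82, with 44 counts of Mki67 against 154 to 246, and its 60 counts of Pttg1 lay among those of the other knockout mice. Control 5 had the highest mitosis score of all, 1.33, with 585 counts of Pttg1, fewer than the 1294 of control 1 at a score of 0.46. D489V 2 had the lowest score, -1.37, and 688 counts of Pttg1, above the 564 of D489V 4 at -0.75. The other lists gave r of -0.19 for APC/C, -0.32 for the checkpoint and -0.48 for S phase over the 10 mice (permutation p 0.582, 0.364 and 0.172). The separase and cohesin score had r = -0.67 (permutation p 0.0398, adjusted 0.199) and rho = -0.70 (permutation p 0.0309, adjusted 0.154), which did not pass the correction. Without controls 1 and 4 that r was -0.58, and with the group means removed it was -0.51 over 15 mice (permutation p 0.079).

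Gene by gene, likeness to Pttg1 was measured as the Pearson r of deviations from the group means over 15 mice, which share libraries and scaling, for 12158 genes with a mean of 50 or more. The median over all of them was -0.05, and 5725 were above 0. Of 13 mitosis genes at that level 5 were above 0, with a median of -0.08, from Tpx2 at -0.42 to Plk1 at 0.30, which ranked 3307. Of 11 separase and cohesin genes 2 were above 0, with a median of -0.56, from Wapl at -0.76 to the cohesin loader Nipbl at 0.49. Of 15 S phase genes 5 were above 0, from Mcm2 at -0.76 to Tk1 at 0.14. Among the 5 partners Ccnd3, a cyclin of G1, was highest at 0.65.

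Few of the 12158 genes ranked are in the division or partner lists, and the genes most like Pttg1 belonged to none of them. Over all 15 samples these included Kcnj8 (r = 0.928), the pore of a potassium channel of mural cells, Gucy1a1 (0.926), a subunit of the receptor for nitric oxide, Garnl3 (0.920), and Ssh1 (0.916), a cofilin phosphatase. By deviations from the group means they included the long noncoding RNA gene AI480526 (r = 0.901), the DNA repair gene Nthl1 (0.888), the nucleotide kinase gene Cmpk2 (0.883) and Sbsn, the suprabasin gene (0.873). AI480526 (chromosome 5) held 1265, 1352, 831, 778 and 969 normalized counts in controls, 710, 574, 604, 838 and 602 in knockout and 1426, 1196, 1567, 928 and 1161 in D489V samples, and its r over all 15 was 0.897. As for Pttg1, controls 1 and 2 were its highest controls, knockout 4 its highest knockout sample, and D489V 1 and 3 were high, but controls 3 and 4 lay below knockout 4. Kcnj8 followed Pttg1 through the groups and not within them: it held 681 to 794 in controls, 449 to 518 in knockout and 689 to 878 in D489V mice, and its r was 0.091 with the group means removed. The sum of the 6 mural markers, Kcnj8 among them, overlapped between all groups. It was 19896 to 23143 in controls, 19063 to 21535 in knockout and 19895 to 24630 in D489V mice. Cmpk2 did the reverse of Kcnj8, with r = 0.433 over all 15 and D489V samples at 116 to 163 that lay mostly below controls at 154 to 277. These genes were picked for their likeness out of 12158, so no test is attached to them. The lists held 11 separase and cohesin, 18 APC/C, 5 checkpoint, 13 mitosis, 15 S phase and 5 partner genes of the 12158. Their absence from the top places is therefore the likely outcome with or without a relation to Pttg1.

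**Figure D4:**
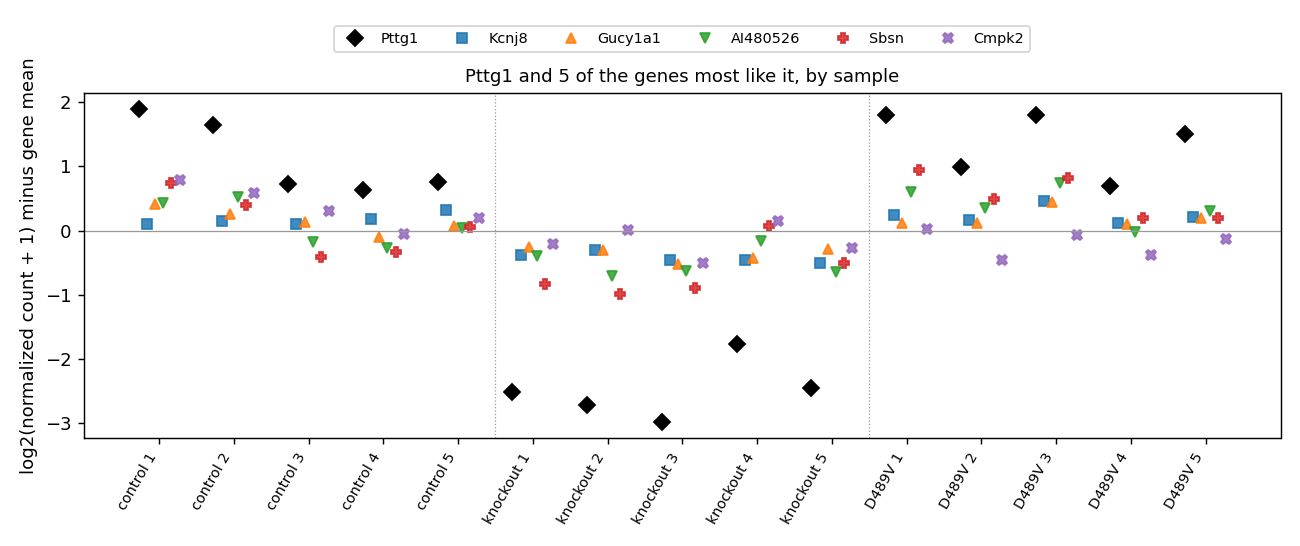
Log2(normalized count + 1) minus the gene's mean over 15 samples for Pttg1 and 5 of the genes most like it, by sample (points of a sample are set side by side, and dotted lines part the groups). Pttg1 spans a wider range than the other 5, and AI480526 and Sbsn share its high values in controls 1 and 2, knockout 4 and D489V 1 and 3.

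None of the genes tested near Pttg1 on chromosome 11 passed the test between knockout and control, where 0.00656% of all 15234 genes, Pttg1 alone, passed. Slu7, a splicing factor gene on the other strand, begins 7493 bases away, and no annotated gene overlaps Pttg1. Slu7 held 1240 to 1343 normalized counts in controls, 1277 to 1379 in knockout and 1224 to 1357 in D489V mice, and its log2 differences were 0.03, -0.04 and 0.06. C1qtnf2, at 48025 bases, held 259, 248, 202, 145 and 131 in controls, 164, 191, 83, 79 and 76 in knockout and 146 to 178 in D489V mice. Its knockout difference to control was -0.79 and did not pass (limma adjusted p 0.312). Knockout 3, 4 and 5, its lowest knockout samples, are libraries high in lymphocyte genes, as is control 5, its lowest control. Control 4, at 145, had 33 B cell marker counts. A relation of C1qtnf2 to lymphocyte content was not tested. Pwwp2a, a gene of a chromatin protein, had log2 differences of -0.18 and 0.16 to control, and Ttc1 had 0.21 and 0.01. Within 5 Mb of Pttg1, 24 genes were tested in knockout against control and 23 in D489V against control. In each comparison 0 passed by limma, where 1 of 15234 and 9 of 15339 genes passed in all. With so few calls, 0 is the likely count for any set of this size. The log2 differences ran from -0.79 to 1.49 and from -1.44 to 0.24. Between knockout and D489V 6 of 23 passed, beside 20.8% of all genes. Ccng1, Clint1 and Thg1l were higher in knockout by 0.64, 0.61 and 0.83, and Pwwp2a, Ebf1 and Adam19 had log2 differences of -0.35, -0.57 and -0.60. The call of Pwwp2a held in 5 of 18 settings. Adam19 also had no overlap between knockout, at 245 to 357, and control, at 429 to 601. That difference was -0.75 and did not pass (limma adjusted p 0.173), and 1.25% of all genes had groups that parted in this direction. Over all 15 samples the r with Pttg1 was 0.91 for Adam19 and -0.79 for Thg1l. Both include the gap in Pttg1 between the knockout and the other groups, by which the gene was chosen. They do not measure likeness within groups.

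**Figure D5:**
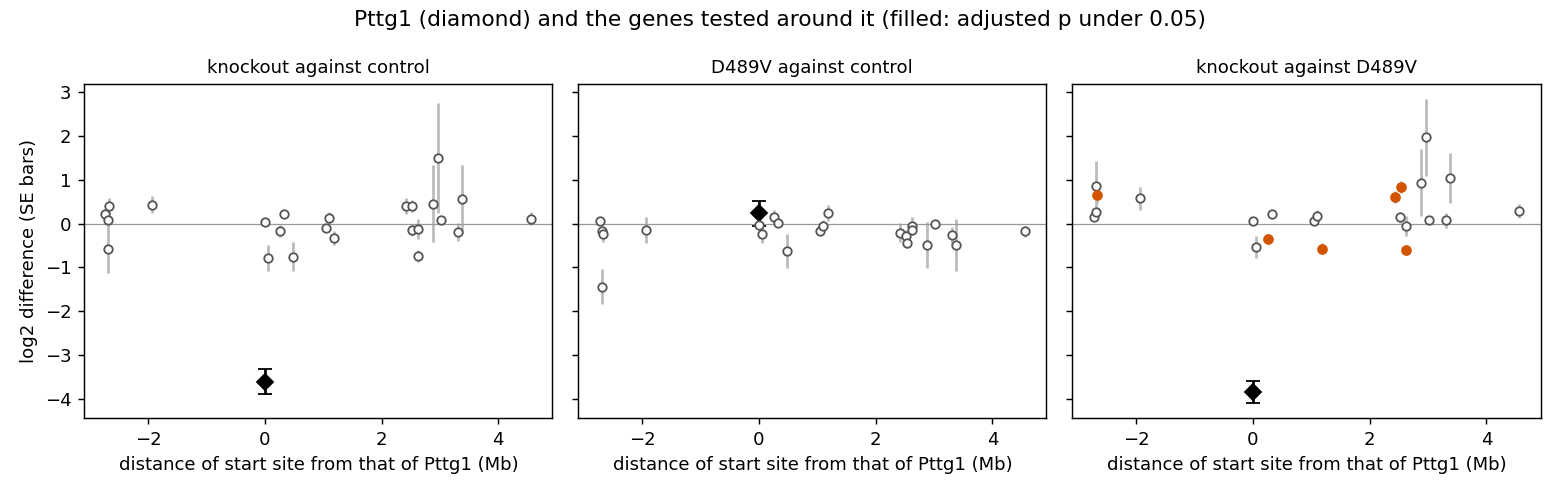
Log2 differences (SE bars) of Pttg1 (diamond) and of the genes tested within 5 Mb of it, by the distance of their start sites in Mb, in the 3 comparisons (filled circles have an adjusted p under 0.05). The nearest gene, Slu7, lies at 0.03, -0.04 and 0.06 beside Pttg1 at -3.61, 0.23 and -3.84.

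Reads of a near-identical copy could be counted under Pttg1, so its annotated transcripts were searched against the others. The 10 transcripts were compared by blastn with all 141767 annotated transcripts, and 1 other gene, Plekhm2, gave a hit, of 47 bases at 87.2% identity.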

How the data were processed

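Muscle RNA of 15 mice was sequenced after poly(A) enrichment with a directional library kit, per the labels' protocols. The unit of the deposited tables is a score. By the names of the tables the authors normalized the counts of each gene, and the values are whole numbers, so they were also rounded. The submitters' processing notes list Trim Galore 0.6.0, cutadapt, FastQC, STAR 2.7.0e, DESeq2 1.26.0 and the build GRCm38, with no role or order given for them. The normalization method and the counting settings are not given in the sources used here. Whole reads could not be recovered from the rounded values, so no test on counts was run, and the depth behind a value is not known beyond the sum of normalized counts. The 2 tables hold identical control columns, and the samples' median ratios to a geometric mean over the 15 samples were 1.0069 to 1.0097, so the tables were used on one scale. All 55536 gene identifiers matched GENCODE M21, which gave names, coordinates and exon lengths.

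Each pair of groups (5 against 5) was fitted alone by limma 3.58.1 (R 4.3.3) on log2(value + 1), using lmFit and then eBayes with a trend. Tests were two-sided. Genes had to reach a value of 10 in 5 or more of the 10 samples. Differences are on that scale, which understates those of low genes. The p-values were adjusted by Benjamini-Hochberg over all genes tested, and a gene was called under 0.05. The fit was tested on simulated data. Correlations used 100000 permutations. The text names Pttg1, Pdgfrb, called genes of the lists, up to 6 members of each list with the greatest difference, the 5 genes most like Pttg1 by each measure, protein-coding genes with a mean of 50 or more within 1 Mb, and called genes within 5 Mb. A gene that this rule names is not reported here. Members whose roles the text follows (Cdc20, Ube2c, Plk1, Tk1, Nipbl and Tpx2) were in part named after their values were seen. The gene and the lists were chosen with earlier results of these data known. Python 3.11.15, numpy 2.4.6, pandas 2.3.3, scipy 1.17.1, matplotlib 3.10.9 and blastn 2.17.0 were also used. The alternatives changed the pseudocount, filter, scaling, sample weights and samples fitted, added a replicate block, and left out each replicate. Leaving out the 4 libraries high in lymphocyte genes, and recounting the lists without single libraries, was chosen after seeing the data.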

Additional observations from a re-analysis of the deposited data

Results flagged for a closer look

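In groups of 5 samples, the gap from the highest or lowest sample to its nearest neighbour was set against the range of the group, and 6 of 108 groups of values had a gap above 0.71 of it, where chance gives about 1 in 20, or 5.4. No group of Pttg1 values was among them.

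Knockout 1 lay far below the other knockout samples in 3 measures. Its log2(value + 1) of Mki67 was 5.49 against 7.28 to 7.95 (gap 0.726 of the range) and of Mcm5 5.73 against 6.92 to 7.39 (0.716), and its spindle checkpoint score was -0.26 against 0.5 to 0.7 (0.792). Its Pttg1 count of 60 was the median of the knockout group. The APC/C score of knockout 4, the knockout sample with the most Pttg1, was 0.02 against 0.32 to 0.43 (0.732). The log2(value + 1) of Gucy1a1 was 9.17 in D489V 3 against 8.84 to 8.93 (0.714). That of Slu7 was 10.28 in control 5 against 10.37 to 10.39 (0.831), a narrow range throughout.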

How the results depend on the processing

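The log2 differences of Pttg1 kept their direction in every setting run and ran, without one replicate, from -3.79 to -3.42 in knockout against control, 0.10 to 0.42 in D489V against control and -4.02 to -3.71 in knockout against D489V. With sample weights the difference of D489V to control was 0.05. The other counts follow, and the cause of each change was not tested. In knockout against control, with 1 gene called as reported, 16 passed with all 15 samples in one fit, 3 without the 4 libraries high in lymphocyte genes, and 1 to 7 without one replicate (7 without knockout 2, 4 without control 5), while 0 division genes passed in each setting. In D489V against control, with 9 genes and 2 division genes as reported, a pseudocount of 5 gave 19 and 4, upper-quartile rescaling gave 17 genes (10 higher, against 4 of 9), sample weights gave 86 and 15, one fit of all 15 samples gave 1 and 0, and leaving out one replicate gave 2 to 26 and 0 to 9, the highest without D489V 3. In knockout against D489V, with 3181 and 13, sample weights gave 33 division genes, the fit without the 4 libraries gave 586 and 3, and leaving out one replicate gave 1398 to 3686 and 7 to 28. The correlation of Pttg1 with the mitosis score, -0.22 as reported, was 0.05 with deviations from group means over 15 samples and -0.38 to -0.05 without one sample. Among 438 values of called single genes and Pdgfrb over these settings, 94 lost the threshold, 0 reversed and 344 did neither.

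The replicate numbers were not taken as pairs, since the labels name no shared litter or day. Deviations of same-numbered samples correlated at -0.21 to 0.24, -0.40 to 0.39 and -0.11 to 0.10 in the 3 comparisons. Differently numbered samples were not compared, so these values do not settle whether the numbers pair the samples. With the replicate block the differences of Pttg1 were -3.61, 0.23 and -3.84, and 0, 0 and 13 division genes and 1, 7 and 2208 genes passed. Rounding to whole counts limits the precision of genes below 10.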
